A study of Mus musculus with 6 samples.

Results

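The glutathione transferases of the pi, theta, kappa, zeta and omega classes and of the microsomal family were compared between livers of mice fed regular chow (control) and livers of mice fed soy-enriched chow (soy). The set holds 10 genes (Gstp1, Gstp2, Gstt1, Gstt2, Gstt3, Gstk1, Gstz1, Gsto1, Mgst1 and Mgst3), and a probe was taken as a member where its RefSeq accession belongs to one of them. All 10 genes had a probe, with 13 probes in all, among 22911 named genes and 56605 probes on the array. The alpha and mu classes are used here only for comparison.

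Liver RNA came from 6 male mice, 12 weeks old and fed their diet for 4 weeks, and each mouse had its own 1-colour Agilent array. The 3 control mice received 100% regular food, and the 3 soy mice a mixture of 75% regular food and 25% soy bean. No strain is given in the sources used here, and neither group carried a transgene or received another agent by the labels. Adding soy bean also changes the fat, protein and sugar of the chow, and these cannot be told apart from other soy components.

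Glutathione transferases join the tripeptide glutathione to reactive, electrophilic molecules, which are then exported from the cell and excreted. The cytosolic classes share a fold and differ in substrates, the kappa class has a separate origin, and the microsomal enzymes are an unrelated family of small membrane proteins that reached similar chemistry. The liver is among the tissues richest in these enzymes, and several alpha, mu and pi genes are known to be induced by dietary compounds through the transcription factor NRF2.

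The arrays of the groups differed in the number of spots well above background, which was 37010, 36366 and 38163 for the control livers but 31308, 31988 and 32498 for the soy livers. All 13 member probes were well above background on all 6 arrays and none was saturated, so each of them gave a measured level in every liver. Slide 1 carried control 1, control 2 and soy 1, slide 2 carried soy 2 alone, and slide 3 carried the remaining pair, control 3 and soy 3. Correlations between arrays over all probes lay between 0.9854 and 0.9925. A level below is the normalized signal on the log2 scale, a change is the soy mean minus the control mean, and each gene is given by its brightest probe unless another is named. Brightness depends on the probe, so levels are compared between livers and not between genes.

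None of the 10 transferases passed the test for a difference between the diets, which asked for an adjusted p under 0.05 (limma, Benjamini-Hochberg over all probes) and a fold change above 1.5 or under 0.66. By the same rule 198 of 56605 probes (0.35%) passed, and with them 122 of 22911 genes (0.532%), of which 78 were higher in soy (0.34%) and 44 lower (0.192%). The changes ran from -0.07 for Gstp2 to 0.68 for Mgst3 with adjusted p between 0.159 and 0.957 by limma. Of the 10 changes 8 were above 0 and 2 below it, with a median of 0.14, against -0.0056 over all genes and -0.0051 over the genes well above background on all arrays. With 1 array left out that median ran from 0.027 (without control 3) to 0.25 (without soy 2), and 5 members turned direction under at least 1 alternative. An unadjusted p under 0.05 was found for 3 members (Mgst3, Gsto1 and Gstp1), as for 14.3% of all genes and 20.1% of those well above background. The soy values lay above all control values for 3 members (Mgst3, Gstp1 and Gstk1), as they did for 13.3% of the genes well above background, and lay below them for none, against 12.3%. Among 10 genes such shares would make 1 or 2, so these counts are not read as a result about the members. The 95% interval of the change stayed inside the fold limits for 5 of 10 members, compared with 68.9% of the genes well above background, and reached a limit for the other 5. For those 5 a change of the size that the rule asks for is therefore not excluded by these arrays.

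**Figure D1:**
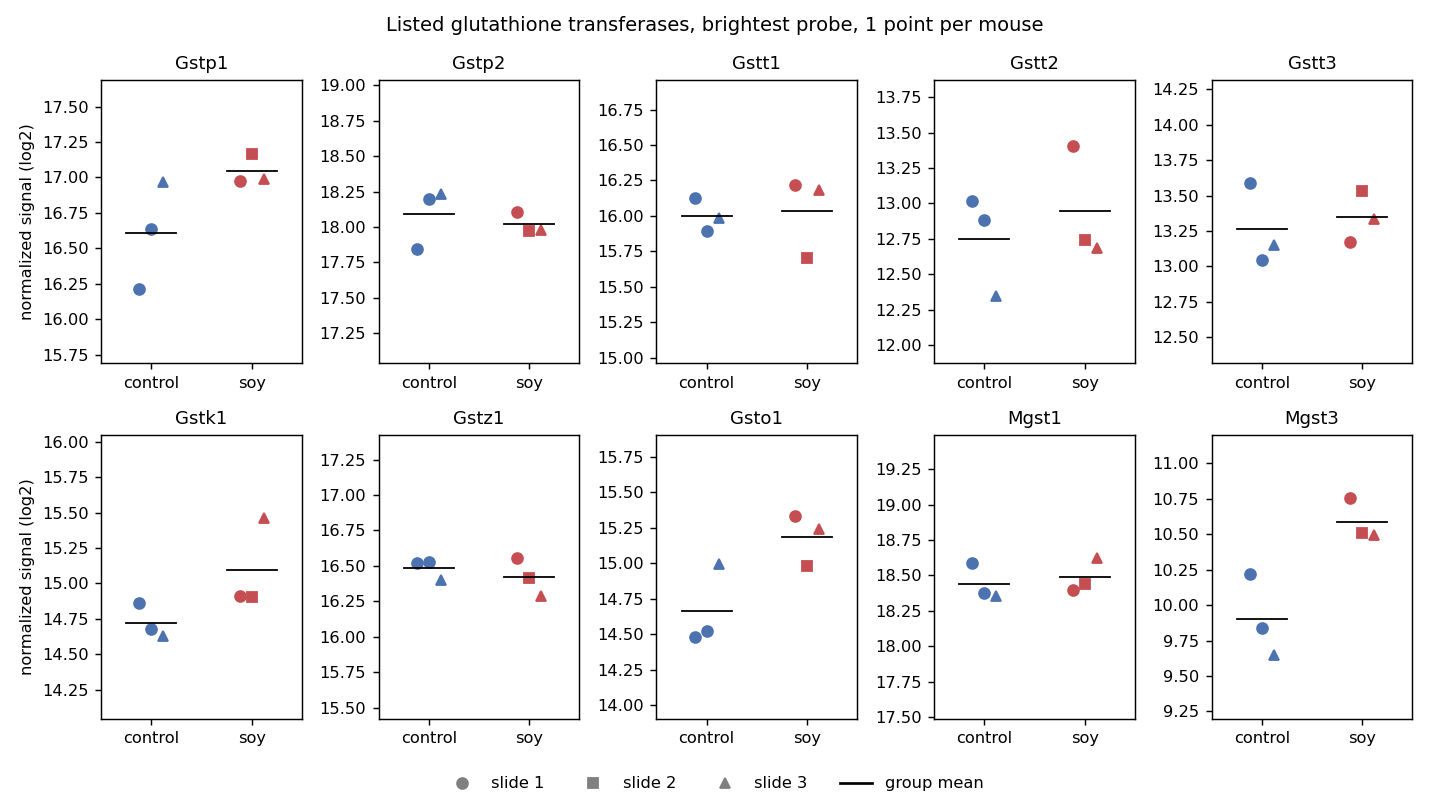
Normalized signal (log2) of the brightest probe of each of the 10 listed transferases, with 1 point per mouse, the marker giving the slide and the black line the group mean; every panel spans the same number of log2 units. The soy points of Mgst3, Gstp1 and Gstk1 lie above all control points, for Gstp1 by a margin too small to see, and the groups overlap in the other panels.

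The pi class was represented by Gstp1 and Gstp2, soluble enzymes that handle small electrophiles such as acrolein and that also bind signalling kinases. In mice both are more abundant in male than in female liver, and of the other sex-biased genes on lists 0 of 9 male-biased and 0 of 9 female-biased genes passed (limma), with median changes of -0.0016 (-0.19 without soy 3 to 0.05 without soy 2) and -0.04 (0.04 without soy 1). The largest changes among the male-biased genes were -0.49 for Selenbp2 (adjusted p = 0.131 by limma), with all soy livers below the control livers, -0.39 for Hsd3b5 (adjusted p = 0.475, -0.19 without control 2) and 0.28 for Cyp2d9 (adjusted p = 0.539, 0.15 without soy 1), both with overlap. Of the female-biased genes 5 were above background on no array, and their median was -0.05 with only probes above background and 0.77 from the processed signal. Cyp2b9, with the largest change of them, gave -1.19 (adjusted p = 0.585 by limma) with overlap, and -0.42 without control 1. Cyp3a41a, the brightest of them with a mean level of 18.14, gave 0.80 (adjusted p = 0.172 by limma) without overlap. Its probe was not compared with the sequences of related Cyp3a genes, so its signal may not be that of Cyp3a41a alone. In the RefSeq annotation Gstp1 and Gstp2 lie side by side with Gstp3 and with 0 other protein-coding genes between them. Over the 250 bases before their starts, 207 of 235 aligned bases were identical between Gstp1 and Gstp2 (88.1%), with 30 further positions in gaps. The stretches are printed because the pair shares so much sequence. The capitals mark TGAGTCAGC, an element of the kind bound by AP-1 and NRF2 dimers, found 74 to 66 bases before the start of Gstp1 and 89 to 81 bases before that of Gstp2. Both runs end at the base before the start, on the minus strand of GRCm38.p6 in RefSeq, at chr19:4037913-4038022 for Gstp1 and chr19:4042222-4042331 for Gstp2.
Gstp1: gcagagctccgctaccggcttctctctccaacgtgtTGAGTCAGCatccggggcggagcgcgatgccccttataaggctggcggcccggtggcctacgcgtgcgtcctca
Gstp2: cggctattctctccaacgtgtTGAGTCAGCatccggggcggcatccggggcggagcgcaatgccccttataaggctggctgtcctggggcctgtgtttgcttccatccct

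Gstp1 (NM_013541) measured 16.22, 16.64 and 16.97 in the control livers and 16.98, 17.16 and 16.99 in the soy livers. The groups do not overlap, but control 3 is nearly level with the lowest soy liver, and the control livers spread more widely than the soy livers (SD 0.379 against 0.104, n = 3 each). The change was 0.44 (SE 0.186, adjusted p = 0.433 by limma), or 1.35-fold with a 95% interval of 1.00 to 1.83. It was 0.55 within slide 1 and 0.02 within slide 3, and between 0.24 (without control 1) and 0.62 (without control 3) when 1 array was left out. Gstp2 (NM_181796) measured 17.85, 18.19 and 18.23 in the control livers and 18.11, 17.97 and 17.98 in the soy livers. Here control 1 was the lowest liver of all and the other control livers the highest. The change was -0.07 (SE 0.129, adjusted p = 0.874 by limma), or 0.952-fold, and the interval of 0.773 to 1.17 lies inside the fold limits. The slides differed in direction, with 0.09 within slide 1 and -0.25 within slide 3, and the change was -0.19 without control 1 and -1.6e-05 without control 3. Probes of closely related genes may cross-hybridize, and transcript and probe sequences were not compared here, so the split of signal between Gstp1 and Gstp2 is uncertain. The neighbouring Gstp3, not on the list, measured 10.70 ± 0.54 in control and 10.02 ± 0.39 in soy livers (SD, n = 3). The groups overlap, and the change was -0.68 (SE 0.292, adjusted p = 0.437 by limma), or -0.93 without control 1 and -0.40 without control 2.

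The theta enzymes act mainly on small halogenated and sulfated molecules, and Gstt1 is known for its action on dichloromethane. The RefSeq order on the chromosome is Gstt3, Gstt1, Gstt4 and Gstt2, again with 0 other protein-coding genes between them. Gstt1 (NM_008185) measured 16.13, 15.90 and 15.98 in the control and 16.22, 15.70 and 16.18 in the soy livers. Soy 2 was the lowest of the 6 livers and the other soy livers were the highest. The change was 0.03 (SE 0.156, adjusted p = 0.957 by limma), or 1.02-fold with an interval of 0.795 to 1.32, and it was 0.21 within slide 1 and 0.20 within slide 3. Gstt2 (NM_010361) measured 13.02, 12.88 and 12.34 in the control and 13.40, 12.74 and 12.69 in the soy livers. The 3 livers on slide 1 were the highest, and the groups overlap. The change was 0.20 (SE 0.240, adjusted p = 0.803 by limma), with the widest interval of the members, 0.778 to 1.69 as a fold, and was 0.45 within slide 1 and 0.34 within slide 3. Gstt3 (NM_133994) measured 13.59, 13.05 and 13.15 in the control and 13.18, 13.53 and 13.34 in the soy livers, with control 1 the highest and control 2 the lowest of all. Its change of 0.09 (SE 0.166, adjusted p = 0.884 by limma) corresponds to 1.06-fold, with an interval of 0.811 to 1.39 inside the fold limits, and was -0.14 within slide 1 but 0.18 within slide 3. Gstt4 was well above background on none of the 6 arrays and gets no fold change.

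Kappa, zeta and omega each had 1 listed gene. Gstk1, the kappa enzyme of mitochondria and peroxisomes, measured 14.86, 14.67 and 14.63 in the control and 14.91, 14.91 and 15.46 in the soy livers (NM_029555). The groups do not overlap, soy 3 stands above all other livers, and the remaining soy livers lie just above control 1. The change was 0.37 (SE 0.168, adjusted p = 0.460 by limma), or 1.29-fold with an interval of 0.987 to 1.70. Without soy 3 it was 0.19, and it was 0.14 within slide 1 and 0.83 within slide 3.

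Gstz1, the zeta enzyme, is maleylacetoacetate isomerase and carries out the next to last step of tyrosine breakdown. Its brighter probe (NM_001252555) measured 16.52, 16.53 and 16.40 in the control and 16.56, 16.42 and 16.29 in the soy livers, and the groups overlap. The change was -0.06 (SE 0.108, adjusted p = 0.865 by limma), with an interval of 0.804 to 1.14 as a fold, and it was 0.03 within slide 1 and -0.11 within slide 3. The dimmer probe (NM_010363) gave -0.23 (SE 0.151, adjusted p = 0.624 by limma), also with overlap and inside the fold limits. The 4 listed genes of the same pathway (Tat, Hpd, Hgd and Fah) did not pass either. All had changes below 0, with a median of -0.53, and for 3 of them the soy values lay below all control values, against 12.3% of the genes well above background. Hpd, which makes homogentisate, gave -0.66 (adjusted p = 0.219 by limma), and Fah, which carries out the last step, -0.40 (adjusted p = 0.283 by limma). Tat, the tyrosine aminotransferase at the head of the pathway, gave -0.76 (adjusted p = 0.323 by limma) with overlap, and -0.52 without control 1.

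Gsto1, the omega enzyme, has a cysteine where other classes have serine or tyrosine and reduces dehydroascorbate and methylated arsenic. Its brighter probe (NM_010362) measured 14.48, 14.52 and 15.00 in the control and 15.33, 14.98 and 15.24 in the soy livers. The groups overlap only through control 3 and soy 2, which are nearly level. The change was 0.52 (SE 0.167, adjusted p = 0.295 by limma), or 1.43-fold with an interval of 1.09 to 1.87. The dimmer probe, for the same accession, measured 13.64, 13.45 and 13.87 in the control and 14.28, 14.15 and 14.26 in the soy livers. On this probe the groups do not overlap, and all soy livers stand clear of control 3. Its change of 0.57 (SE 0.128) had the smallest adjusted p of all 13 member probes, 0.140 by limma. The brighter probe changed by 0.83 within slide 1 and 0.24 within slide 3, and the dimmer by 0.74 and 0.38. Gsto2, the neighbour of Gsto1, gave -0.37 (adjusted p = 0.489 by limma, -0.56 without control 3 and -0.23 without control 2) on its brighter probe. That probe was well above background on 3 control and 2 soy arrays. The change of Gsto2 was -0.93 from the processed signal, -0.20 with the 75th percentile shift and -0.13 with the mean of its probes. It was -0.69 within slide 1 and -0.04 within slide 3.

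The microsomal enzymes belong to the membrane family that also makes leukotriene C4 and prostaglandin E2. Mgst1, the general detoxifying member, sits in the endoplasmic reticulum and outer mitochondrial membrane. It measured 18.59, 18.38 and 18.35 in the control and 18.39, 18.44 and 18.63 in the soy livers (NM_019946), with overlap. The change was 0.05 (SE 0.115, adjusted p = 0.907 by limma), and its interval of 0.859 to 1.24 as a fold was inside the limits. It was -0.09 within slide 1 and 0.27 within slide 3. The dimmer probe of Mgst1 gave 0.12 (SE 0.0985, adjusted p = 0.700 by limma) with all soy values above the control values, by little.

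Mgst3, which reduces lipid hydroperoxides and can conjugate leukotriene A4, had the largest change of the 10. Mgst3 (NM_025569) measured 10.22, 9.84 and 9.65 in the control and 10.75, 10.51 and 10.50 in the soy livers. The groups do not overlap, and the lowest soy liver is clear of control 1, the highest control. The change was 0.68 (SE 0.163, adjusted p = 0.159 by limma), or 1.60-fold with an interval of 1.23 to 2.09. It was 0.72 within slide 1 and 0.85 within slide 3, and between 0.55 (without control 3) and 0.84 (without control 1) when 1 array was left out. From the scanner's own processed signal it was 0.76 and passed (adjusted p = 0.0231 by limma), a setting under which 25.7% of all genes passed. Mgst2 was well above background on none of the arrays. Of the related proteins that are not detoxifying transferases, Ltc4s gave -0.33 (adjusted p = 0.477 by limma, from the arrays left after outlier spots were dropped), Ptges -0.27 (adjusted p = 0.626) and Alox5ap 0.17 (adjusted p = 0.729). Leaving out 1 liver took these to -0.21 for Ltc4s and -0.08 for Ptges (both without soy 3). For Alox5ap the range was 0.05 (without control 1) to 0.29 (without soy 1). The Ptges probe given here read 15.13 on average, but other probes of the gene read 6.71 and 6.61. Those gave -0.17 and 0.01, and were well above background on 2 control arrays and on none. The Ptges probes thus disagree in level, and the cause was not tested.

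A promoter stretch is shown for Mgst1, since it was the only member whose window (250 bases before to 50 after the start in RefSeq) held the core of the antioxidant response element, TGACNNNGC, searched on both strands. Of the members 9 had a window, and over 32851 windows 12.4% held the core. TGAGTCAGC, searched in the same way and chosen after the pi promoters had been read, was in 0.414% of the windows and, among the members, in Gstp1 and Gstp2. It overlaps no match of the core in those windows. The capitals mark the match in Mgst1, on the reverse strand, 56 to 48 bases before the start at chr6:138140417-138140526 (plus strand of GRCm38.p6).
Mgst1: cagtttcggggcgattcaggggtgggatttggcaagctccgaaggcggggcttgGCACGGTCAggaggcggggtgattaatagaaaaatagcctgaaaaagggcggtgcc

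Members of one class were then set against each other within each liver, so that a shift equal for both probes of an array drops out. An array effect that depends on brightness or on the probe does not drop out. The difference in brightness between the probes has no meaning by itself, and only its shift between the diets is read. The pairs were chosen after the data were seen. How often other pairs of genes lack overlap was not computed, so a lack of overlap is only described. There were 5 such pairs, each tested with a two-sided exact permutation test, in which 3 livers against 3 cannot give a p below 0.1, before or after Benjamini-Hochberg adjustment over the 5 pairs. Gstp1 minus Gstp2 was -1.63, -1.56 and -1.26 in the control and -1.13, -0.80 and -0.99 in the soy livers. The soy livers all lie above the control livers, by a mean of 0.51 (SD 0.194 in control, 0.165 in soy, exact permutation p = 0.1, adjusted 0.25). The shift was 0.46 within slide 1 and 0.27 within slide 3. Mgst3 minus Mgst1 was -8.37, -8.54 and -8.71 in the control and -7.64, -7.94 and -8.13 in the soy livers, again without overlap. Its mean shift was 0.63 (SD 0.170 and 0.245, exact permutation p = 0.1, adjusted 0.25), with 0.81 within slide 1 and 0.58 within slide 3. Alone, Mgst3 changed by 0.68 and Mgst1 by 0.05, so most of this shift is that of Mgst3. The 3 theta pairs overlapped between the diets, with shifts of -0.16 for Gstt1 minus Gstt2, -0.05 for Gstt1 minus Gstt3 and 0.11 for Gstt2 minus Gstt3 (exact permutation p = 0.5, 0.9 and 0.8).

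**Figure D2:**
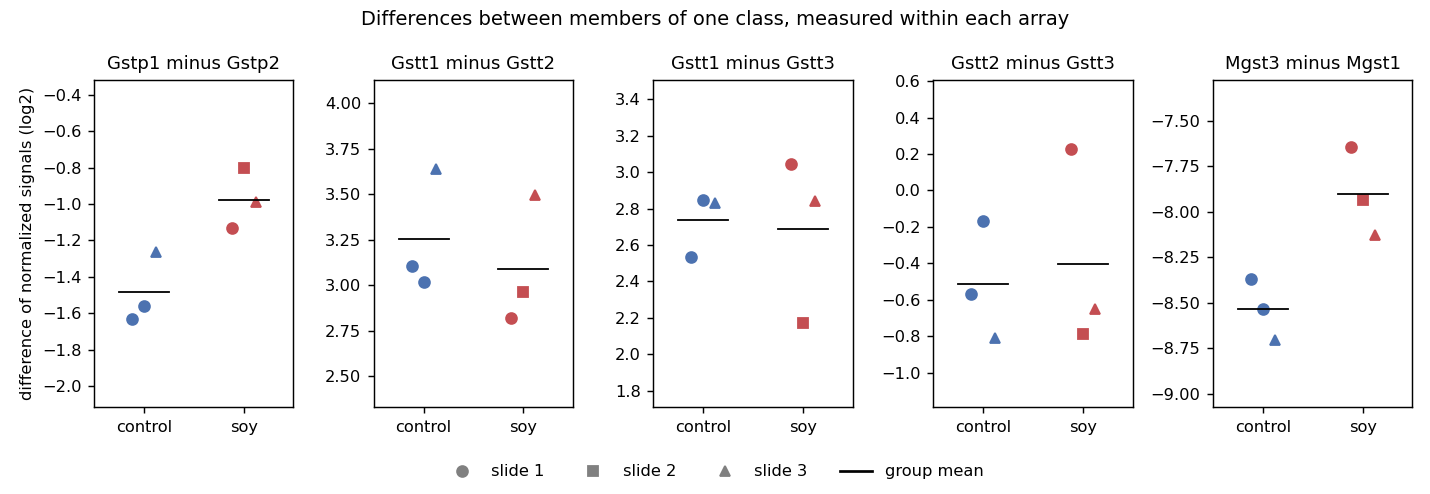
Difference of the normalized signals (log2) of the brightest probes of 2 members of one class within each liver, with 1 point per mouse, the marker giving the slide and the line the group mean. Soy points lie above all control points for Gstp1 minus Gstp2 (mean shift 0.51) and Mgst3 minus Mgst1 (0.63), and overlap with them for the 3 theta pairs.

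The alpha and mu classes are given beside the listed genes, and a difference between classes was not tested. Of 7 mu-class genes 3 passed on at least 1 probe, higher in soy on the probes that passed (Gstm1, Gstm4 and Gstm6), while the brightest probes of the class had a median change of -0.05 (0.27 with the mean of a gene's probes, -0.16 with the slide as a block, and -0.15 without soy 2 to 0.02 without soy 1). Of the 3 alpha-class genes with a probe 0 passed, with a median change of 0.62 (0.36 without control 1 to 0.81 without control 2). Gstm1, a main hepatic transferase for aromatic electrophiles, rose by 0.96 (SE 0.131, adjusted p = 0.0398 by limma), from 16.82 ± 0.23 in control to 17.77 ± 0.026 in soy livers (SD, n = 3). Gstm4 rose by 1.19 (SE 0.119, adjusted p = 0.0167 by limma). Gstm6 rose by 1.07 (adjusted p = 0.0169 by limma) on its dimmer probe, while its brighter probe gave -0.94 (adjusted p = 0.0515), so the probes of Gstm6 disagree. The brighter probe passed as lower in 4 of 19 alternatives, among them only probes above background (adjusted p = 0.0269) and the processed signal (0.0192). Gstm1, Gstm4 and the dimmer probe of Gstm6 each passed in 1 of 6 fits with a liver left out, with changes of 0.86 to 1.08, 1.12 to 1.27 and 1.03 to 1.15. With the slide as a block the changes were 0.98, 1.23 and 1.09 but the calls ended (adjusted p = 0.184, 0.0995 and 0.0954 by limma). The call on this probe of Gstm1 was lost in 10 of 18 alternatives, also with the 75th percentile shift (adjusted p = 0.0543), cyclic loess (0.0664) and an offset of 16 (0.0913). A dimmer probe of Gstm1 also passed, with 1.20 (adjusted p = 0.0287 by limma). It kept its call in 10 of 18 alternatives, the percentile shift (0.0166) and cyclic loess (0.0312) among them, and lost it with an offset of 16 (0.0617) and the slide as a block (0.127). The other mu genes gave 0.67 for Gstm3 (adjusted p = 0.140), -0.55 for Gstm2 (0.382, and -0.36 without control 1), -0.62 for Gstm7 (0.212) and -0.05 for Gstm5 (0.898), all by limma. The dimmer probe of Gstm5 gave 0.60 (adjusted p = 0.0668 by limma) without overlap, so the probes of Gstm5 disagree as well. In the alpha class Gsta2 gave 2.30 (SE 0.379, adjusted p = 0.0658 by limma), the largest change among the glutathione transferases measured. It passed in 4 of 19 alternatives, among them the processed signal (adjusted p = 0.0133), only probes above background (0.0325) and the fit without control 1 (0.0351). With the slide as a block the change was 2.59 and the adjusted p 0.141 (limma). Gsta3 gave 0.32 (adjusted p = 0.239) and Gsta4 0.62 (adjusted p = 0.498) by limma, the latter with 0.25 without control 1.

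Gstm1 was set against each of the 10 members within the liver, as a description, because its rise was known when it was chosen. The difference Gstm1 minus member was higher in every soy liver than in every control liver for 6 members (Gstp2, Gstt1, Gstt3, Gstk1, Gstz1 and Mgst1), as it was for 12225 of 13497 genes well above background (90.6%). It overlapped for Gstp1, Gstt2, Gsto1 and Mgst3. The mean shifts ran from 0.27 for Mgst3 to 1.03 for Gstp2, and within slides 1 and 3 all 10 were above 0.

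**Figure D3:**
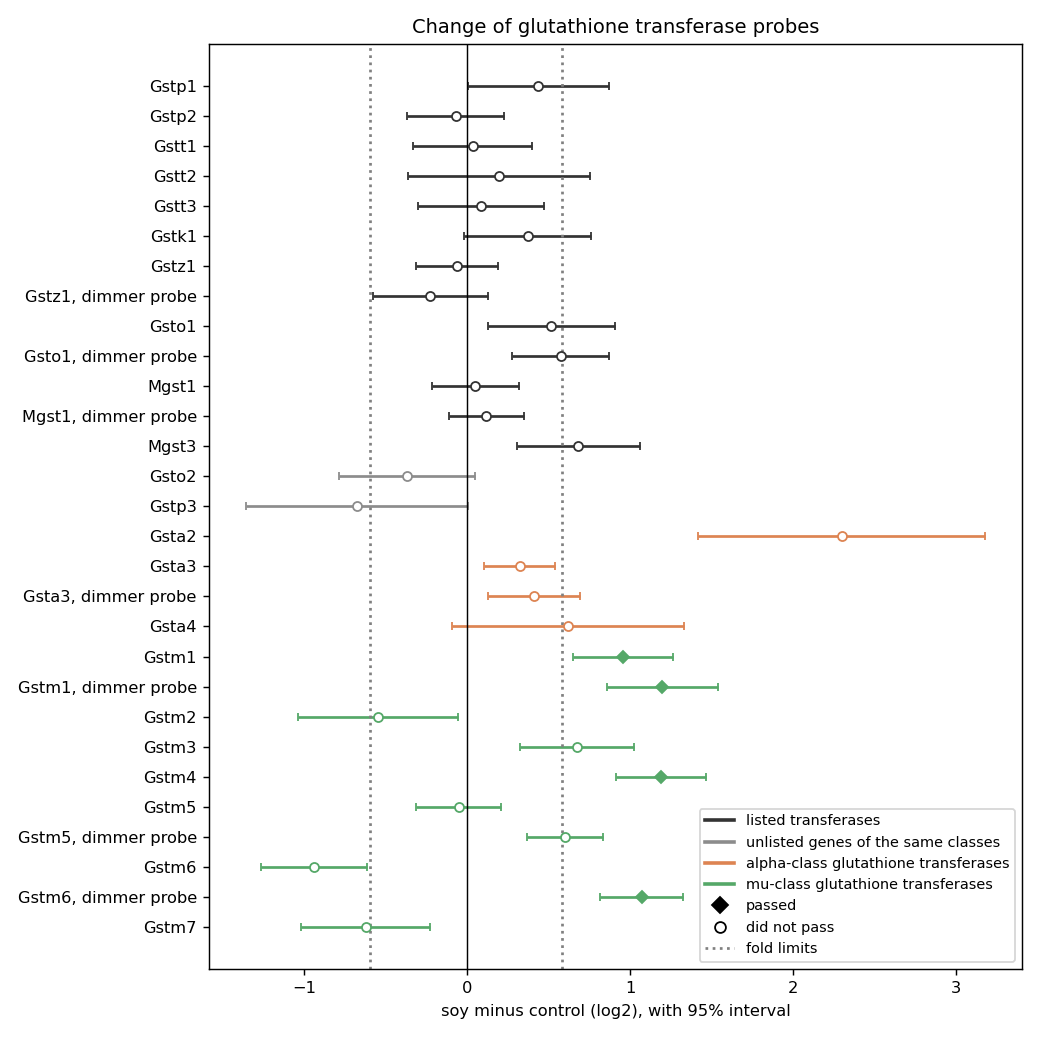
Change of each transferase probe well above background on at least 1 array (soy minus control, log2) with its 95% interval, coloured by group; filled diamonds mark probes that passed, open circles those that did not, and dotted lines the fold limits. All 13 probes of the listed genes are open, and the filled probes belong to Gstm1, Gstm4 and Gstm6.

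Genes that supply glutathione, carry off its conjugates or control transferase genes were read from lists. In the synthesis and reduction list 0 of 11 genes passed, with a median change of 0.13 (0.08 without control 1 to 0.23 without soy 1, 0.33 from the processed signal and 0.25 with only probes above background). Gclc, the catalytic subunit of the enzyme for the rate-limiting step, gave 1.44 (adjusted p = 0.0529 by limma) and Gclm, its modifier subunit, 0.66 (adjusted p = 0.0591 by limma), both without overlap. Gclc passed in 5 and Gclm in 4 of 19 alternatives, among them only probes above background (adjusted p = 0.0278 and 0.0337 by limma). Chac1, which degrades glutathione, gave -0.54 (adjusted p = 0.394 by limma, -0.35 without soy 2) with overlap. Among 9 genes of conjugate export and mercapturate formation 1 passed, and the median was 0.06 (0.02 without soy 3 to 0.16 without soy 2, 0.32 from the processed signal and 0.23 with the percentile shift). It was Abcc3, a basolateral export pump for conjugates, which rose by 0.82 (adjusted p = 0.0244 by limma) but passed in 0 of 6 fits with a liver left out and neither with the slide as a block (change 0.88, adjusted p = 0.127) nor with an offset of 16 (0.071). Abcc4, another basolateral pump, gave 0.93 (adjusted p = 0.155) and Abcc2, the canalicular pump, 0.34 (adjusted p = 0.337) by limma.

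Of the 11 regulators 1 passed, with a median of 0.05 that was -0.069 without control 3, 0.25 without control 2 and 0.20 with the slide as a block. It was Nr1i3, the receptor CAR, which rose by 0.87 (adjusted p = 0.0426 by limma) on its dimmer probe. That probe passed in 1 of 6 fits with a liver left out. It passed neither with the slide as a block (change 0.80, adjusted p = 0.171) nor with an offset of 16 (0.0964). The brighter probe gave 0.85 (adjusted p = 0.0877 by limma) and passed in 4 of 19 alternatives. Among them were only probes above background (adjusted p = 0.0466 by limma) and the processed signal (0.0174). The small Maf genes, whose products pair with NRF2 on DNA, gave 0.41 for Mafg (adjusted p = 0.355, 0.25 without control 3), -0.39 for Mafk (adjusted p = 0.165) and -1.18 for Maff (adjusted p = 0.372, -0.65 without control 1) by limma, and 0 of the 3 passed. Of 8 NRF2 targets outside glutathione metabolism 2 passed and the median was 0.62. Ephx1, microsomal epoxide hydrolase, rose by 1.22 (adjusted p = 0.0473 by limma) and Ugdh, which makes UDP-glucuronic acid, by 1.06 (adjusted p = 0.0401). Each of these passed in 1 of 6 fits with a liver left out, and with the slide as a block the changes were 1.16 and 1.09 with adjusted p of 0.213 and 0.112. An offset of 16 ended both calls (0.0922 and 0.0865), and cyclic loess that of Ephx1 (0.0718). Srxn1, sulfiredoxin, gave 0.86 (adjusted p = 0.0607) and passed in 3 of 19 alternatives. Of the 8 targets 2 had changes below 0, both named after their values were seen. Hmox1, heme oxygenase 1, gave -0.34 (adjusted p = 0.387 by limma) with all soy livers below the control livers, and Akr1b8, an aldo-keto reductase, -0.05 (adjusted p = 0.911). Several of these genes were already known to be high in these arrays when the lists were written.

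**Figure D4:**
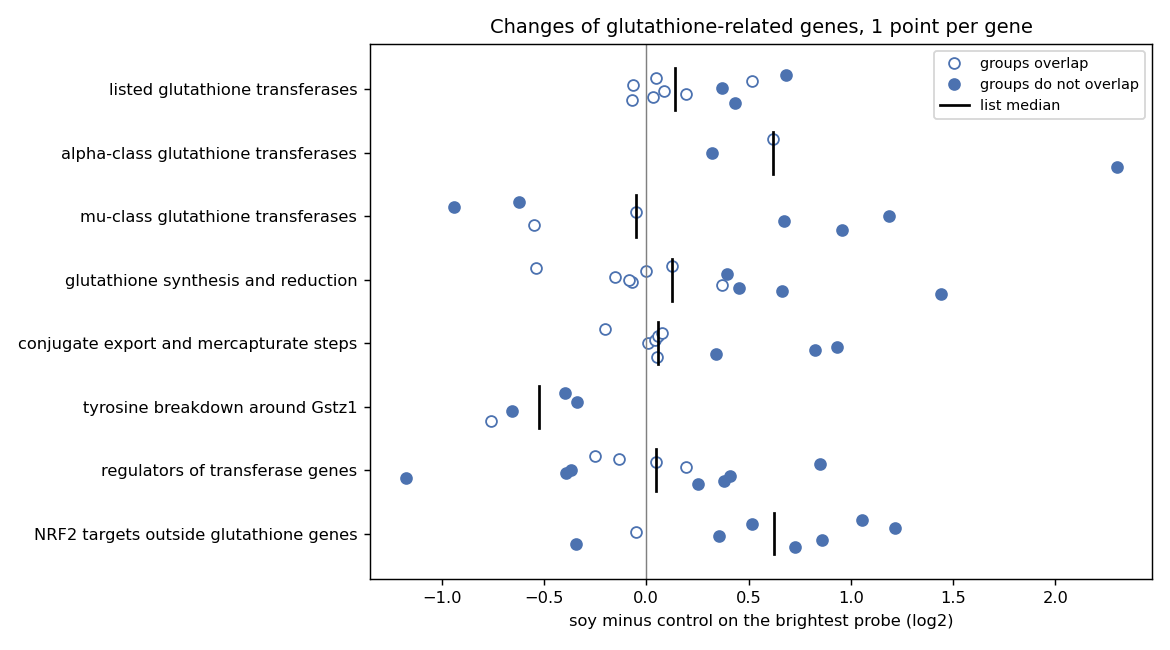
Change of the brightest probe (soy minus control, log2) of every gene on 8 lists, with 1 point per gene, filled where the soy and control livers do not overlap, and the black line the list median. The listed transferases centre on 0.14, the NRF2 targets on 0.62 and the tyrosine genes on -0.53.

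The liver label was checked with marker lists, since the signal of a piece of liver sums over its cells and fewer cells of a type cannot be told apart from less RNA per cell. All 7 hepatocyte markers were well above background on all 6 arrays, with Serpina1a the brightest at 19.02 ± 0.06 in control and 19.02 ± 0.05 in soy livers (SD, n = 3). The groups did not overlap for the hepatocyte marker Cps1 (-0.47, adjusted p = 0.176 by limma) and the stellate marker Col1a1 (-0.99, adjusted p = 0.317), both lower in every soy liver and named after their values were seen. Over 8 lists of hepatocyte, other liver cell, blood, pancreas and adipocyte markers, 0 of 48 genes with a probe passed (limma), 1 lay above and 6 lay below the control livers without overlap, as did 9.67% and 10.8% of all genes. The list medians were -0.0044 for hepatocyte, -0.01 for cholangiocyte, 0.15 for Kupffer cell, 0.07 for endothelial, -0.08 for stellate, 0.42 for red cell and neutrophil and -0.08 for adipocyte markers. With 1 array left out the Kupffer median ran from -0.07 (without control 1) to 0.37 (without control 3), the red cell and neutrophil median was 0.13 (without control 2), and the endothelial median was -0.0042 (without soy 3). The hepatocyte, cholangiocyte and stellate medians stayed between -0.14 and 0.05 in those fits, and the adipocyte median was 0.39 from the processed signal. Adipoq, Plin1 and Epcam were well above background on no array, and Retn, Cfd, Krt7 and Cftr on some only. With only probes above background the cholangiocyte median was -0.14 and the adipocyte median -0.21. With the percentile shift they were 0.11 and 0.13. These 2 lists thus rest largely on dim probes. The brightest genes of the other lists gave 0.15 for Spp1 (cholangiocyte, 0.02 without soy 3), 0.45 for Cd5l (Kupffer, 0.20 without control 1), 0.20 for Clec4g (endothelial, 0.11 without soy 2), -0.08 for Dcn (stellate, -0.04 without control 3), -0.21 for Lep (adipocyte, -0.12 without control 3) and 0.26 for Hba-a1 (red cell, -0.07 without soy 2). With another liver left out Spp1 gave 0.36 and Lep -0.33 (both without control 1). Dcn then gave -0.14 (without control 2) and Hba-a1 0.50 (without soy 1). As reported, the adjusted p of these 6 genes lay between 0.539 and 0.843 (limma), and Clec4g alone of them had no overlap. Of the 5 pancreas markers 0 passed. All 5 had changes below 0, with a median of -0.51. That median was -0.33 without control 2, -0.30 with the percentile shift and -0.76 from the processed signal. The summed signal of the 5 was 30191, 46429 and 38746 in the control and 22200, 27822 and 20363 in the soy livers, without overlap. Cela1 held 91.0% to 94.8% of that sum in each liver. Cela1 and Ctrb1 were well above background on all 6 arrays, and Pnlip, Prss2 and Cpa1 on 2 control and 0 soy arrays. The soy arrays had fewer spots above background as a whole, and Krt7, Cftr and Des were so on 3 control and 0 soy arrays. The pattern is therefore not particular to pancreas markers. Cela1, the brightest, gave -0.73 (adjusted p = 0.192 by limma) and passed in 1 of 19 alternatives, the processed signal (adjusted p = 0.0487 by limma). Mean levels were 14.75 for Cela1 and 10.76 for Ctrb1, but 6.51, 6.68 and 6.88 for Pnlip, Prss2 and Cpa1. The summed signal is thus mainly one of Cela1. Whether the livers held pancreatic RNA, and whether it had a part in the changes of the transferases, was not tested. The Kupffer markers summed to 25469, 40053 and 48951 in the control and 34847, 41899 and 53742 in the soy livers, with overlap. The summed signal of the red cell and neutrophil markers was highest in soy 2, at 362261 against 151119 to 226710 in the other livers. Red cell genes (Hba-a1, Hbb-bt and Alas2) held 98.8% to 99.6% of that sum and Hba-a1 alone 71.6% to 79.2%, so the sum is one of red cell markers. The neutrophil genes S100a8 and S100a9 held 0.384% to 1.22%, and their changes were 0.58 (adjusted p = 0.445 by limma) and 0.62 (adjusted p = 0.482), with overlap.

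The genes whose level followed Mgst3 and Gsto1 most closely over the 6 livers, among 13387 genes outside the lists and well above background, are given as a description. For Mgst3 they were Spsb2 (Pearson r = 0.993), Zfp974 (0.992) and Mrtfb (0.992). For Gsto1 they were 8030431J09Rik (0.993), Gtf2ird1 (0.990) and Cdc42ep2 (0.988). With 6 livers in 2 diet groups, and the arrays shared by all values, high correlations arise for many genes, and none of these 6 passed the test between the diets.

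**Figure D5:**
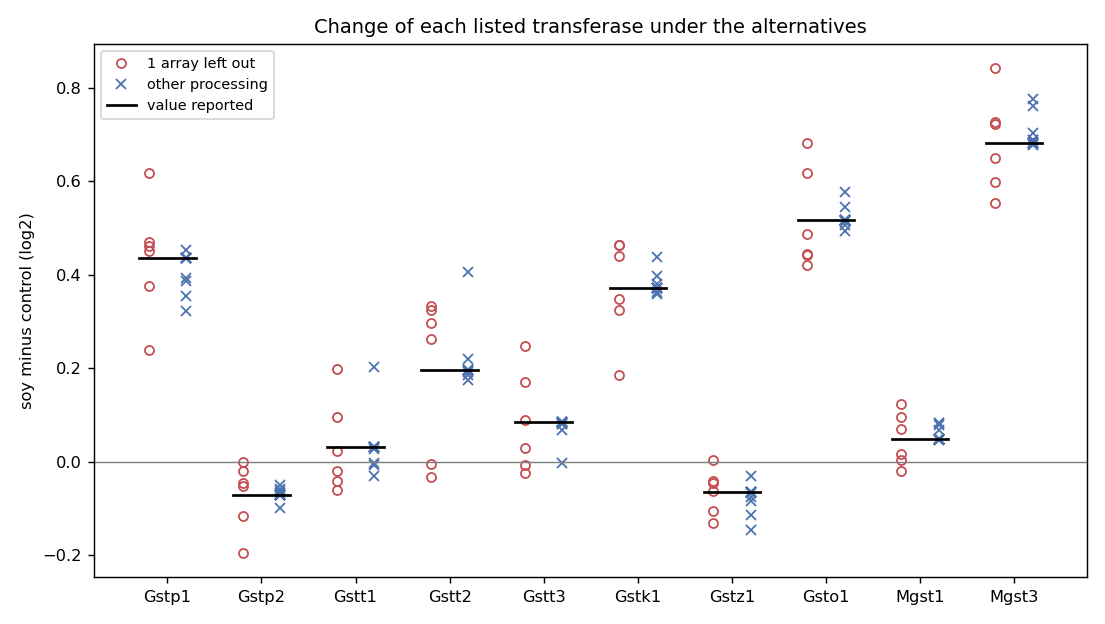
Change of each listed transferase (soy minus control, log2) as reported (black line), with 1 array left out (red circles) and under other processing (blue crosses). Mgst3, Gsto1, Gstp1 and Gstk1 stay above 0 throughout, and Gstt1, Gstt2, Gstt3, Gstz1 and Mgst1 cross it.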

How the data were processed

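The authors hybridized liver RNA to Agilent G3 Mouse Gene Expression arrays and deposited, per the file headers, Feature Extraction 11.5.1.1 output, which holds a median intensity per spot and another for its background. They also deposited a table of log2 values, from which the values computed here differed by 0.0561 at most. For the paper the authors started from raw medians and used limma with Benjamini-Hochberg adjustment, without naming a normalization.

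Intensities were background corrected (normexp, offset 50), control spots removed, arrays quantile normalized on the log2 scale, outlier spots left out and spots of a probe averaged. With limma 3.58.1 in R 4.3.3 the groups were compared on all 56605 probes, and the fit was tested on simulated data. A gene passed where at least 1 probe did. Symbols came from RefSeq accessions (GRCm38.p6) for 32994 probes (58.3%). Since the array annotation names a different build, genes get no positions; promoters are given with those of RefSeq. Precision is limited by the number of arrays (3 per group). The series text calls the mice biological replicates. Tables and plots were made with Python 3.11.15, pandas 2.3.3, Biopython 1.88 and matplotlib 3.10.9.

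The members, the 20 lists and the tests were chosen with earlier results of these data known. Named were all members and the unlisted, alpha and mu transferases. Of the other lists, genes that passed and up to 3 of the largest changes were named, and of cell type lists the brightest gene; Mafk, Hmox1, Akr1b8 and further cell type markers were named after their values were seen. A gene of each of 2 lists is not reported here and was taken out of its list. Likeness was taken for the 2 members with the largest changes. The within-liver differences and TGAGTCAGC were chosen after the data were seen. Alternatives were other background corrections, scalings, filters, probe averages, call rules, blocks and arrays left out, the scanner's processed signal (an intensity after background subtraction by the scanner software, before the data were deposited) and the deposited log2 values. Small RNA sequencing and qRT-PCR were not analysed here.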

Additional observations from a re-analysis of the deposited data

How the results depend on the processing

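Under 19 alternatives for each of the 10 members, 176 of 190 fits kept the direction and the side of the threshold, 1 passed (Mgst3 from the processed signal) and 13 turned direction, in 5 members (Gstt1, Gstt2, Gstt3, Gstz1 and Mgst1) with changes of -0.06 to 0.20 as reported. Some alternatives could not turn a direction. Adjusted p alone, the replicate block, the other variance setting of limma and the background filter left each member's change as reported. The mean of a gene's probes did so for members with a single probe. The count of 176 is therefore no measure of how stable the directions are. The count of members that passed was 1 from the processed signal and 0 elsewhere. The count of all genes that passed, 122, was 48 with an offset of 16, 5892 from the processed signal, 310 with only probes above background, 16 with the slide as a block and 16 to 126 with 1 array left out (16 without soy 3, 18 without soy 2, 30 without soy 1, 45 without control 2, 63 without control 1). The processed signal and the 75th percentile shift moved the median of all probes to 0.13, against -0.01 as reported, but the median of the probes above background only to -0.0029 and 0.02.

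The median change of the members, 0.14, was 0.26 with the slide as a block and 0.027 (without control 3) to 0.25 (without soy 2) with 1 array left out. Gstt1 turned to -0.0076 from the processed signal, -0.031 with the percentile shift and -0.0032 with cyclic loess, and ranged from -0.060 to 0.20 with 1 array left out. Gstt3 was -0.0021 with the slide as a block and -0.023 to 0.25 with 1 array left out. The same range was -0.032 to 0.33 for Gstt2, -0.13 to 0.0033 for Gstz1 and -0.021 to 0.12 for Mgst1. Of the other genes, Gstm5 turned to 0.27 and Gstm6 to 0.066 with the mean of their probes, and Serpina1a to 0.099, 0.089 and 0.13 from the processed signal, with the percentile shift and with cyclic loess. Hba-a1 was -0.12 with the slide as a block. With 1 array left out Gstm5 ranged from -0.15 to 0.017, Serpina1a from -0.038 to 0.018 and Hba-a1 from -0.068 to 0.50. The shifts of the theta pairs then ranged from -0.37 to 0.029 for Gstt1 minus Gstt2, -0.23 to 0.20 for Gstt1 minus Gstt3 and -0.20 to 0.30 for Gstt2 minus Gstt3. The causes were not tested.

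The livers share only a number across groups, with correlations of their deviations of 0.12, -0.06 and 0.10, and 1 of 3 control livers correlated best with its own number. With the replicate number as a block, 50 genes passed and 0 members, and Gsta2 passed (adjusted p = 0.0171 by limma), while the calls were lost for Gstm1 (0.0845), Abcc3 (0.0783), Nr1i3 (0.102) and Ephx1 (0.0981). The planned normexp on mean spot signals could not be run, because the spot signals in the files used are medians. The depth that limits dim genes is signal over background, and all member probes were above it.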
